A study of Cricetulus griseus with 16 samples.

Results

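The genes described here carry the first steps of tumour necrosis factor (TNF) and interleukin-1 (IL-1) receptor signaling in Chinese hamster ovary (CHO) cells exposed to heat. They were taken from the table of read counts by name, ignoring case, and are the receptors Tnfrsf1a, Tnfrsf1b and Il1r1, the co-receptor Il1rap, the adaptors Myd88, Traf1, Traf2, Traf3 and Traf6, and the kinase Ripk1. All 10 names matched 1 row each of the 20824 rows, and all 10 genes were detected in every library.

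CHO cells (ATCC CCL-61) are an established line from the ovary of a Chinese hamster. Total RNA was isolated, made into libraries and sequenced as paired ends after 4 treatments with 4 biological repeats each, lettered A to D. Cells were kept at 37 °C or, 24 h after seeding in the same serum-containing medium, heated to 40 °C for 1 h, to 40 °C for 6 h or to 42.5 °C for 1 h. The question was how the RNA of these genes differed between mild heat, longer mild heat and moderate heat.

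TNF binds to a pair of cell surface receptors. TNFR1, encoded by Tnfrsf1a, has a death domain through which the adaptor TRADD and the kinase RIPK1 are recruited, whereas TNFR2, encoded by Tnfrsf1b, lacks a death domain and binds TRAF2 directly. IL-1 binds to IL1R1, which pairs with IL1RAP and recruits MYD88 and IRAK kinases, and TRAF6 then carries the signal on. Both routes end in the TAK1 and IKK kinases and in NF-κB, a transcription factor that switches on cytokines, adhesion molecules and its own inhibitors.

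Total counts were between 10504192 and 14668365 per library, so that 3 counts, taken as the floor of detection, corresponded to 0.205 to 0.286 CPM, the unit of counts scaled to a fixed library total. The lowest count of any of the 10 genes was 37, for Traf1, and the highest was 1679, for Traf2. Levels below are CPM scaled by TMM, a normalization that equalizes the bulk of genes between libraries. They are not divided by transcript length, so a level is compared between conditions of a gene and not between genes. In bulk RNA, fewer cells carrying a transcript and less of it per cell cannot be told apart.

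Replicate D at 37 °C stood apart from its group. Its log2 CPM correlated across genes with the other controls at r of 0.9717 to 0.9743, whereas every other pair of libraries within a group reached at least 0.9935. The study left out 1 control library, and the main comparisons here used controls A, B and C, with values for all 4 controls given beside the results of the members and, for the other pathway genes, as counts of DEGs and wherever they change a call. Vim, Fn1 and Col3a1, which mark mesenchymal cells, had at least 926 counts in every library, while the other 2 mesenchymal markers, Cdh2 and Col1a1, had at most 8. The leukocyte markers Ptprc, Csf1r and Cd3e had at most 1 count in any library, and 3 of 4 granulosa cell markers, Foxl2, Fshr and Cyp19a1, were listed at 0, with Amh at 24 to 90 counts.

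**Figure D1:**
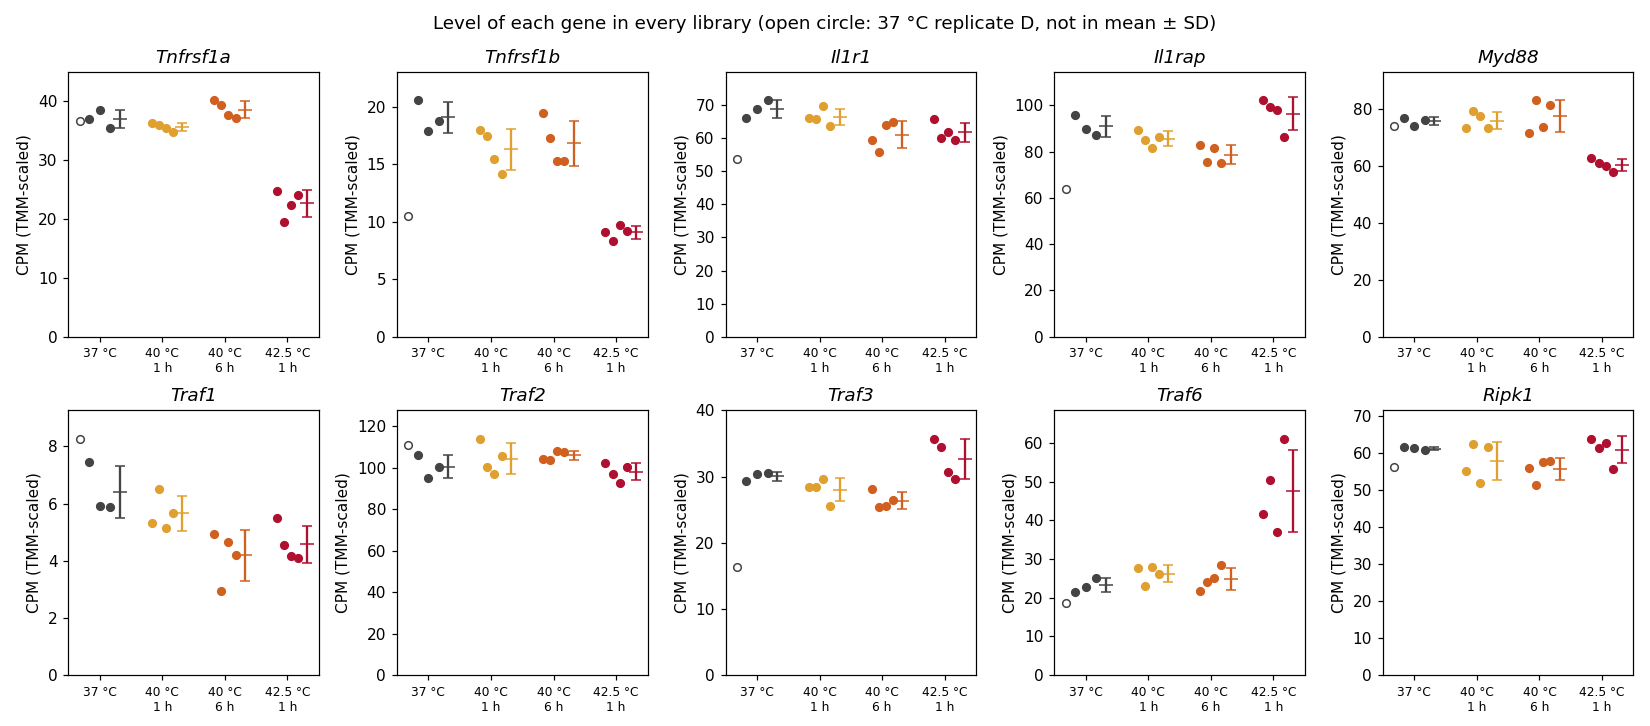
Level of each of the 10 genes (y axis, CPM scaled by TMM, from 0) in every library by treatment (x axis), with filled points for libraries, a bar for the mean ± SD of those libraries and an open circle for 37 °C replicate D, which is outside the mean. At 42.5 °C all 4 libraries of Tnfrsf1a, Tnfrsf1b and Myd88 lie below every library of the other treatments, and all 4 of Traf6 lie above them.

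Of the 10 genes, 3 passed both thresholds of a differentially expressed gene (DEG), an adjusted p under 0.05 and a change of 1.5-fold or more, after 1 h at 42.5 °C. Both TNF receptors fell and Traf6 rose. Over all 10470 genes tested in this comparison, 7.51% were DEGs, 2.83% higher and 4.68% lower. Only Traf1 was a DEG after 6 h at 40 °C, where 3.11% of 10499 genes were, and no member was a DEG after 1 h at 40 °C, where 0.334% of 10494 genes were. With all 4 controls the numbers of members called were again 0, 1 and 3, beside 0.0287%, 2.09% and 6.14% of all genes. The members were chosen with earlier results of these data known, so these shares describe and do not test them.

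Tnfrsf1a encodes TNFR1, the receptor of soluble TNF present on most cell types. At 37 °C its level was 37.0 CPM in replicate A, 38.6 in B and 35.4 in C, and 36.6 in the replicate D left out. It was 36.4, 36.0, 35.5 and 34.7 CPM after 1 h at 40 °C, and 40.2, 39.3, 37.6 and 37.1 CPM after 6 h at 40 °C. After 1 h at 42.5 °C it was 24.7, 19.5, 22.3 and 24.1 CPM. The 42.5 °C libraries thus lay below all 12 others, whereas the remaining 3 groups lay close together. The mean fell from 37.0 ± 1.57 CPM (SD, n = 3) to 22.7 ± 2.32 CPM (SD, n = 4), a log2 change of -0.71 (SE 0.08, adjusted p = 4.35e-06, edgeR's quasi-likelihood test), that is 61.1% of the control level. With all 4 controls the log2 change was -0.70 (adjusted p = 0.000665).

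At 40 °C, Tnfrsf1a did not pass the test. Its log2 change was -0.05 after 1 h (95% interval -0.17 to 0.06) and 0.05 after 6 h (-0.07 to 0.18), or -0.05 and 0.06 with all 4 controls. The 6 h libraries all lay above the 1 h libraries, by a log2 difference of 0.11 that missed the threshold (adjusted p = 0.19).

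Tnfrsf1b encodes TNFR2, which responds mainly to membrane-bound TNF. Its level at 37 °C was 20.6, 17.9 and 18.8 CPM in replicates A, B and C, while replicate D had 10.5 CPM. It was 18.0, 17.4, 15.5 and 14.2 CPM after 1 h at 40 °C and 19.4, 17.3, 15.3 and 15.3 CPM after 6 h. At 42.5 °C the level was 9.12, 8.29, 9.69 and 9.23 CPM. All 4 libraries at 42.5 °C were below every other library, replicate D included, although D was much nearer to them than to its own group.

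The mean of Tnfrsf1b fell from 19.1 ± 1.37 CPM (SD, n = 3) at 37 °C to 9.08 ± 0.58 CPM (SD, n = 4) at 42.5 °C, a log2 change of -1.08 (SE 0.10, adjusted p = 5.62e-07). With replicate D among the controls the log2 change was -0.90 (SE 0.20, adjusted p = 0.012). At 40 °C it was -0.23 after 1 h (SE 0.10, adjusted p = 0.278) and -0.19 after 6 h (SE 0.10, adjusted p = 0.151), neither past the threshold. With all 4 controls these became -0.06 and -0.02.

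The ratio of the counts of both TNF receptors within a library does not depend on how libraries are scaled. At 37 °C there were 55.6, 46.3 and 53.0 Tnfrsf1b reads per 100 Tnfrsf1a reads in replicates A, B and C, and 28.7 in replicate D. At 42.5 °C there were 36.9, 42.4, 43.5 and 38.4. The groups without D did not overlap, with a log2 difference of -0.36, and the two-sided exact permutation test gave p = 0.0571, the smallest value that 3 against 4 libraries allow (0.171 after adjustment over 6 tests). With replicate D the difference was -0.15 and the exact permutation p was 0.6, so a difference in the ratio of the receptors rests on which controls are used.

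Il1r1 encodes the signaling receptor of IL-1α and IL-1β. Its level was between 66.1 and 71.4 CPM in controls A, B and C, 53.7 in D, 63.7 to 69.7 after 1 h at 40 °C, 55.9 to 64.8 after 6 h at 40 °C and 59.5 to 65.7 at 42.5 °C. The log2 change was -0.17 after 6 h at 40 °C (SE 0.06, adjusted p = 0.0374) and -0.16 at 42.5 °C (SE 0.05, adjusted p = 0.0236), below 1.5-fold in both. Replicate D was below every heated library, and with it the values were -0.10 (adjusted p = 0.552) and -0.07 (adjusted p = 0.649). After 1 h at 40 °C the log2 change was -0.05, and 0.03 with all 4 controls, neither past the threshold.

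Il1rap, the co-receptor that IL1R1 needs to signal, had 95.7, 89.8 and 87.0 CPM in controls A, B and C, and 63.7 CPM in D. It had 82.7, 75.5, 81.5 and 75.0 CPM after 6 h at 40 °C and 102, 99.4, 97.8 and 86.1 CPM at 42.5 °C. After 6 h at 40 °C the log2 change against 37 °C was -0.21 (SE 0.06, adjusted p = 0.00809), and it was -0.10 with all 4 controls (adjusted p = 0.609). At 42.5 °C it was 0.07 (SE 0.06, adjusted p = 0.318), and 0.20 with all 4 controls (adjusted p = 0.304). After 1 h at 40 °C it was -0.09, and 0.02 with all 4 controls, neither past the threshold. Between heated groups, where control D plays no part, Il1rap was higher after 42.5 °C than after 6 h at 40 °C by 0.29 (SE 0.06, adjusted p = 0.000701), and the libraries of these groups did not overlap.

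Myd88, the adaptor that joins the IL-1 receptor complex to the IRAK kinases, was among the steadiest of the 10 genes in the controls. Its level was 77.0, 74.3 and 76.1 CPM in A, B and C, and 74.0 CPM in D. It was between 73.4 and 79.3 CPM after 1 h at 40 °C and between 71.8 and 83.2 CPM after 6 h, and 63.0, 61.0, 60.0 and 57.8 CPM at 42.5 °C. The 42.5 °C libraries lay below all others. The log2 change was -0.33 (SE 0.05, adjusted p = 6.75e-05), to 79.3% of the control level, which is smaller than 1.5-fold. It was -0.31 with all 4 controls (adjusted p = 0.00442). At 40 °C the log2 change was 0.004 after 1 h and 0.03 after 6 h, or 0.01 and 0.04 with all 4 controls, none past the threshold.

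Traf6 encodes a ubiquitin ligase that acts downstream of MYD88 and the IRAK kinases in IL-1 and Toll-like receptor signaling. At 37 °C it had 21.5, 22.8 and 25.1 CPM in A, B and C, and 18.6 CPM in D. It had 27.6, 23.1, 28.0 and 26.1 CPM after 1 h at 40 °C and 21.6, 24.0, 25.2 and 28.4 CPM after 6 h. At 42.5 °C it had 41.6, 50.3, 37.0 and 61.1 CPM. All 4 libraries at 42.5 °C were above every other library, and they also differed among themselves more than those of any other group, with a coefficient of variation of 22.3% against 7.76% to 11.3% without replicate D.

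The mean of Traf6 rose from 23.2 ± 1.80 CPM (SD, n = 3) to 47.5 ± 10.6 CPM (SD, n = 4) at 42.5 °C, a log2 change of 1.04 (SE 0.13, adjusted p = 1.77e-05), and of 1.11 with all 4 controls (adjusted p = 0.00158). It was 0.18 after 1 h at 40 °C (SE 0.08, adjusted p = 0.319) and 0.10 after 6 h (SE 0.09, adjusted p = 0.429), or 0.25 and 0.17 with all 4 controls. Leaving out any 1 library kept the value at 42.5 °C between 0.89 and 1.15 and the gene called.

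Traf2, which binds TNFR2 directly and TNFR1 through TRADD, gave no DEG against 37 °C. Its level was between 95.1 and 106 CPM in controls A, B and C, 111 in D, 97.1 to 114 after 1 h at 40 °C, 104 to 108 after 6 h and 92.8 to 102 at 42.5 °C. The log2 changes against 37 °C were 0.05, 0.07 and -0.04 in this order of treatments, with 95% intervals that together spanned -0.14 to 0.17. With all 4 controls they were 0.02, 0.04 and -0.07. It was lower at 42.5 °C than after 6 h at 40 °C by -0.12 on the log2 scale (adjusted p = 0.0464), without overlap of the libraries.

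The Traf6 count per 100 Traf2 counts, again independent of scaling, was 20.3, 24.0 and 25.0 in controls A, B and C, and 16.7 in D. It was 24.2, 23.0, 28.8 and 24.7 after 1 h at 40 °C, 20.7, 23.1, 23.3 and 26.4 after 6 h, and 40.7, 51.8, 39.9 and 60.8 at 42.5 °C. The log2 difference at 42.5 °C was 1.05, with a two-sided exact permutation p of 0.0571, the smallest that the design allows (0.171 adjusted over 6 tests), and 1.16 with all 4 controls (exact permutation p = 0.0286, again the smallest possible, 0.172 adjusted). At 40 °C the differences were 0.12 after 1 h and 0.02 after 6 h, with overlapping libraries.

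**Figure D2:**
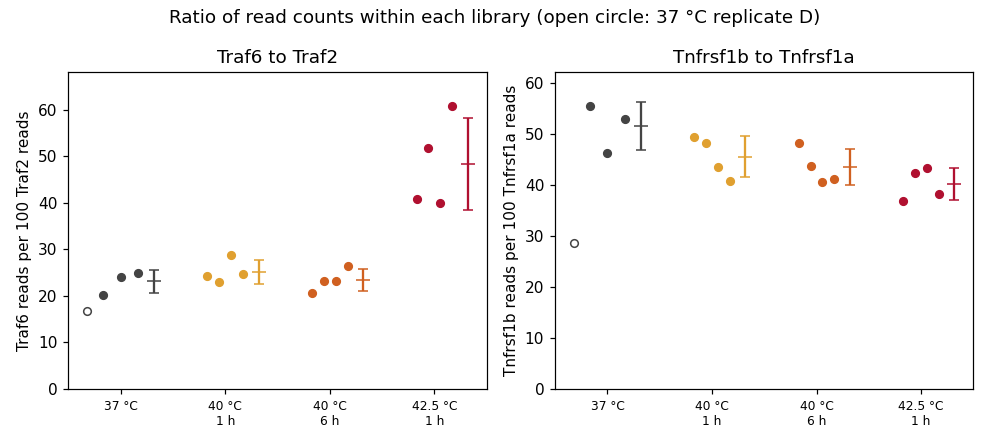
Reads of a gene per 100 reads of its partner in the same library (y axes, from 0) by treatment (x axis), for Traf6 to Traf2 on the left and Tnfrsf1b to Tnfrsf1a on the right, with bars for the mean ± SD and an open circle for 37 °C replicate D, outside the mean. Traf6 to Traf2 lies at 39.9 to 60.8 at 42.5 °C and at no more than 28.8 elsewhere, while Tnfrsf1b to Tnfrsf1a in replicate D, at 28.7, lies below every heated library.

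Traf1, an adaptor that pairs with TRAF2 and is itself a known NF-κB target, was the least counted of the 10 genes, at 37 to 106 counts per library. Its level was 7.44, 5.91 and 5.86 CPM in controls A, B and C, and 8.27 CPM in D. It was 5.30, 6.52, 5.14 and 5.66 CPM after 1 h at 40 °C, 4.94, 2.93, 4.65 and 4.21 CPM after 6 h, and 5.51, 4.54, 4.17 and 4.10 CPM at 42.5 °C. The libraries of 6 h at 40 °C and of 42.5 °C both lay below all 4 controls, and overlapped each other.

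After 6 h at 40 °C, Traf1 decreased by 0.63 in log2 CPM (SE 0.17, adjusted p = 0.00937), and with all 4 controls by 0.72 (adjusted p = 0.0343). This call rested on single libraries, since without control A the log2 change was -0.50 (adjusted p = 0.0762) and without heated replicate B it was -0.49 (adjusted p = 0.0267), under 1.5-fold. At 42.5 °C the value was -0.50 (SE 0.15, adjusted p = 0.0137), or -0.58 with all 4 controls (adjusted p = 0.0282), under 1.5-fold in both, and without heated replicate A it was -0.60 (adjusted p = 0.00632), which would be called. The direct difference between 42.5 °C and 6 h at 40 °C was 0.13 (95% interval -0.21 to 0.46, adjusted p = 0.568). After 1 h at 40 °C the log2 change against 37 °C was -0.19, and -0.28 with all 4 controls, neither past the threshold.

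Traf3, which restrains the non-canonical NF-κB route by holding the kinase NIK for degradation, was no DEG against 37 °C. It had 29.3 to 30.5 CPM in controls A, B and C, but 16.4 CPM in D. It had 25.5 to 29.7 CPM after 1 h at 40 °C, 25.4 to 28.1 CPM after 6 h and 29.6 to 35.8 CPM at 42.5 °C. The log2 change after 6 h at 40 °C was -0.19 (adjusted p = 0.0459), and -0.02 with all 4 controls (adjusted p = 0.949). After 1 h at 40 °C it was -0.10 (adjusted p = 0.539), and 0.07 with all 4 controls (adjusted p = 0.951). At 42.5 °C it was 0.11 (adjusted p = 0.249), and 0.29 with all 4 controls (adjusted p = 0.308). Between heated groups Traf3 was higher at 42.5 °C, by 0.21 against 1 h at 40 °C (adjusted p = 0.0383) and by 0.30 against 6 h at 40 °C (adjusted p = 0.0036), the latter without overlap.

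Ripk1, the kinase recruited to TNFR1 that takes part in both NF-κB activation and cell death, passed the test in none of the 6 comparisons. Its level was 60.6 to 61.6 CPM in controls A, B and C, 56.1 CPM in D, 52.0 to 62.4 CPM after 1 h at 40 °C, 51.4 to 57.8 CPM after 6 h and 55.5 to 63.8 CPM at 42.5 °C. The log2 changes against 37 °C were -0.08, -0.14 and -0.02, and the 95% intervals together spanned -0.25 to 0.09. With all 4 controls they were -0.05, -0.11 and 0.03. The smallest adjusted p against 37 °C was 0.0703, after 6 h at 40 °C, where all heated libraries lay below controls A, B and C.

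**Figure D3:**
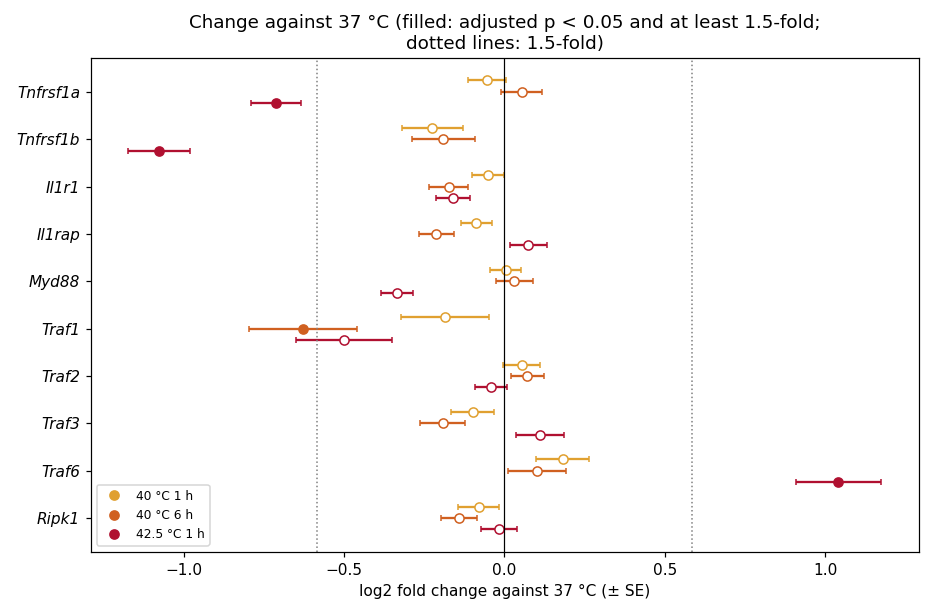
Log2 change against 37 °C (x axis, bars ± SE) of each of the 10 genes (y axis) for the 3 treatments, with filled points for DEGs and dotted lines at 1.5-fold either way. The points for 42.5 °C reach -1.08 for Tnfrsf1b, -0.71 for Tnfrsf1a and 1.04 for Traf6, while at 40 °C only Traf1 after 6 h, at -0.63, lies past a dotted line.

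By adjusted p alone, with no demand on size, none of the 10 genes passed after 1 h at 40 °C (1.64% of all genes did), and 2 of them had an unadjusted p under 0.05. After 6 h at 40 °C, 4 passed, all lower, where 29.4% of all genes passed and 14.8% were lower. At 42.5 °C, 6 passed, 5 of them lower, where 43.1% of all genes passed and 22.3% were lower. With all 4 controls 1 passed at 6 h, beside 10.7% of all genes, and 5 passed at 42.5 °C, beside 18.2%. The heated libraries lay wholly below controls A, B and C for 5 members after 6 h at 40 °C (17.6% of all genes) and for 5 at 42.5 °C (22.8%), and wholly above them for 1 at 42.5 °C (23.1%). None were apart after 1 h at 40 °C, where 13.4% of all genes were. With replicate D among the controls, Traf3, Ripk1, Il1r1 and Il1rap no longer lay wholly below them after 6 h at 40 °C. The same held for Il1r1 at 42.5 °C. The share of all genes was not taken with D. The median log2 change of the 10 genes was -0.07, -0.16 and -0.10 in the 3 treatments, beside medians of all genes tested that lay within 0.002 of 0.

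These comparisons share their controls, so the heated groups were also set against each other. Against 1 h at 40 °C, which differs from the moderate treatment in temperature alone, 3 of the 10 genes were DEGs at 42.5 °C, where 5.27% of all genes were. These were Tnfrsf1a at -0.66 (SE 0.07, adjusted p = 5.64e-06), Tnfrsf1b at -0.85 (SE 0.10, adjusted p = 1.24e-05) and Traf6 at 0.86 (SE 0.12, adjusted p = 5.86e-05). Myd88 was lower by -0.34 (adjusted p = 7.02e-05) and Il1rap was higher by 0.16 (adjusted p = 0.026), both under 1.5-fold. With Traf3, 6 genes passed by adjusted p alone, where 36.1% of all genes did. The libraries of both groups were apart for 4 members, the 3 DEGs and Myd88, and for 34.1% of all genes.

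Against 6 h at 40 °C, the 3 DEGs at 42.5 °C were again Tnfrsf1a at -0.77, Tnfrsf1b at -0.89 and Traf6 at 0.94, where 8.25% of all genes were DEGs. By adjusted p alone 7 genes passed, where 47.0% of all genes did, and the other 4 were Myd88, Il1rap, Traf3 and Traf2. The libraries were apart for all 7, and for 41.8% of all genes. Between 6 h and 1 h at 40 °C none of the 10 genes was a DEG (1.28% of all genes were) and none passed by adjusted p alone (18.5% did), with 3 at an unadjusted p under 0.05. The libraries were apart for 2 members, Traf1 and Tnfrsf1a, and for 21.3% of all genes. The nearest to the threshold was Traf1, at -0.44 (SE 0.16, adjusted p = 0.0594), whose libraries after 6 h all lay below those after 1 h.

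The genes around the members were followed in lists of 81 further pathway genes, of which 74 were found by name. The lists were chosen with earlier results of these data known, so counts over them are descriptions. Of 8 ligands, 7 were at or near 0 in these cells. Il1a, Il1b, Ltb and the IL-1 antagonist Il1rn were listed at 0 in every library, Tnf and Lta had at most 1 count, and Il33 had 1 to 5. Il18, the ligand of the IL-18 receptor and the only one tested, had 9.45 ± 1.00 CPM (SD, n = 3) at 37 °C and 12.4 ± 1.31 CPM (SD, n = 4) at 42.5 °C, and it was no DEG against 37 °C. Control D, at 14.9 CPM, lay above every library at 42.5 °C, where the highest was 13.7 CPM. With controls A, B and C, Il18 passed at 42.5 °C by adjusted p alone, at a log2 change of 0.39. It was higher at 42.5 °C than after 6 h at 40 °C by 0.77 (SE 0.13, adjusted p = 0.000154). A count of 0 allows up to 0.205 to 0.286 CPM in these libraries. Among receptors and decoys, the IL-1 decoy Il1r2, the IL-18 receptor chain Il18r1 and Cd40 had at most 1 count, and none of the 4 receptors tested was a DEG against 37 °C. The receptor gene Tnfrsf25 was too low to be tested. It had 2 to 4 counts in controls A, B and C, and 7 in D. It had 5 to 8 after 1 h at 40 °C, 6 to 13 after 6 h and 0 to 5 at 42.5 °C. The kinases Irak3, Ripk3, Map3k5 and Map3k8 were listed at 0 throughout.

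**Figure D4:**
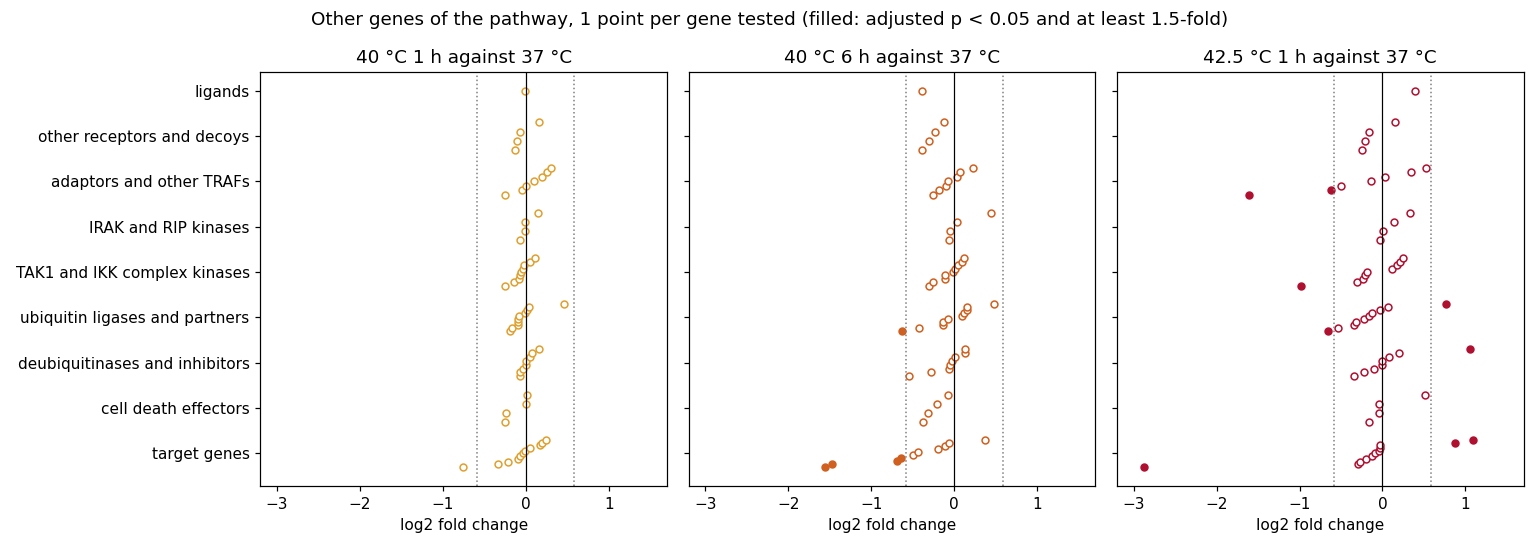
Log2 change against 37 °C (x axes) of each tested gene of the 9 pathway lists (y axis), 1 point per gene and 1 panel per treatment, filled where the gene was a DEG, with dotted lines at 1.5-fold. The filled points at 40 °C for 6 h all lie to the left of 0, at -0.63 to -1.56, whereas at 42.5 °C they lie on both sides, from -2.88 for Cxcl1 to 1.09 for Ptgs2.

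Over the 9 lists, no gene of 58 tested was a DEG after 1 h at 40 °C, 5 of 57 were lower and none higher after 6 h at 40 °C, and 5 of 58 were lower and 4 higher at 42.5 °C. Over all genes, 1.66% were DEGs on the lower side after 6 h and 4.68% at 42.5 °C, and 2.83% on the higher side at 42.5 °C. With all 4 controls, 5 were lower after 6 h at 40 °C, and 4 were lower and 5 higher at 42.5 °C. The 5 genes at 6 h were the same, and at 42.5 °C Fadd was no longer a DEG and Cflar was. The median log2 changes of the lists were -0.03, -0.10 and -0.07.

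Of 7 adaptors tested, 2 were DEGs, both lower at 42.5 °C. Ticam1, which encodes the adaptor TRIF of Toll-like receptors, had 31 to 37 counts in controls A, B and C and 5 to 14 at 42.5 °C, a log2 change of -1.61 (SE 0.26, adjusted p = 0.000165). Fadd, the adaptor that brings caspase-8 to death receptors, was at -0.62 (adjusted p = 0.00156), but at -0.45 with all 4 controls (adjusted p = 0.18). The gene of NIK, Map3k14, was the only DEG among 9 kinases tested of the TAK1 and IKK group, and it fell from 41.6 ± 2.50 CPM (SD, n = 3) to 21.1 ± 2.19 CPM (SD, n = 4) at 42.5 °C, a log2 change of -0.98 (SE 0.08, adjusted p = 2.37e-07).

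Among 10 ubiquitin ligases and their partners, Birc3, which encodes cIAP2, a ligase bound to TRAF2, fell after 6 h at 40 °C by 0.63 (adjusted p = 5.79e-05) and at 42.5 °C by 0.65 (adjusted p = 0.00012), both as log2 changes. Peli1, a ligase that acts on IRAK1, rose at 42.5 °C by 0.77 (adjusted p = 2.84e-05). Among 8 deubiquitinases and inhibitors, Tnfaip3, whose product A20 ends NF-κB signaling at RIPK1 and TRAF6, was the only DEG. Its mean was 69.7 ± 1.27 CPM (SD, n = 3) at 37 °C, 48.0 ± 5.30 CPM (SD, n = 4) after 6 h at 40 °C and 146 ± 40.1 CPM (SD, n = 4) at 42.5 °C. The log2 change was -0.54 after 6 h (adjusted p = 3.26e-05, under 1.5-fold, and -0.38 with adjusted p = 0.185 with all 4 controls) and 1.06 at 42.5 °C (adjusted p = 4.77e-05). The direct difference between these heated groups was 1.60 (SE 0.14, adjusted p = 1.67e-07).

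None of the 4 IRAK and RIP kinases tested was a DEG against 37 °C, nor was any of the 4 cell death effectors with controls A, B and C. Cflar, which encodes the caspase-8 inhibitor c-FLIP and is named here after its values were seen, was at 0.51 at 42.5 °C (adjusted p = 0.000376) and at 0.62 with all 4 controls (adjusted p = 0.0163), which would be a DEG.

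Of the known NF-κB target genes, 4 of 10 tested were DEGs after 6 h at 40 °C, all lower. Over all genes, 3.11% were DEGs and 1.66% were lower ones. This list was chosen with earlier results of these data known, so its counts beside these shares are a description and not a test. The monocyte chemoattractants Ccl2 and Ccl7 were at -1.47 (SE 0.16, adjusted p = 5.52e-06) and -1.56 (SE 0.19, adjusted p = 2.08e-05), the adhesion molecule Icam1 at -0.69 (SE 0.08, adjusted p = 1.41e-05) and the neutrophil chemoattractant Cxcl1 at -0.64 (SE 0.12, adjusted p = 0.000921). By adjusted p alone, 6 of the 10 were lower after 6 h at 40 °C and 1 was higher, where 14.8% of all genes were lower and 14.7% higher. Cxcl10, too low to be tested after 6 h, had 2 to 6 counts there and 7 to 19 in the 4 controls. It was tested at 42.5 °C, where 3 of 11 target genes were DEGs, beside 7.51% of all genes. Cxcl1 fell from 10.5 ± 0.82 CPM (SD, n = 3) to 1.40 ± 0.44 CPM (SD, n = 4), a log2 change of -2.88 (SE 0.18, adjusted p = 1.38e-08). The cytokine Il6 rose by 0.88 (SE 0.15, adjusted p = 0.000252) and Ptgs2, the inducible cyclooxygenase, rose by 1.09 (SE 0.16, adjusted p = 6.64e-05). At 42.5 °C, Ccl2 was at -0.04 (adjusted p = 0.655) and Ccl7 at -0.12 (adjusted p = 0.534), neither past the threshold. The counts of this list leave out 2 further target genes, Nfkbia and Cxcl2, which no row matched by name.

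For each of the 4 members that were DEGs, the 3 named genes with the most similar pattern were found over the 15 libraries, by the root-mean-square difference of log2 CPM centred on each gene's mean, among 9363 genes. For Tnfrsf1a they were Plekhm1 (0.08), Ercc2 (0.08) and Syvn1 (0.08), beside an SD of 0.33 for Tnfrsf1a itself. For Tnfrsf1b they were Mllt6 (0.10), Tbx2 (0.12) and Egln2 (0.12), beside an SD of 0.43. For Traf6, with an SD of 0.44, they were Dnajb4 (0.13), which encodes a heat-inducible co-chaperone, Zfp715 (0.13) and Srxn1 (0.14), which encodes the antioxidant enzyme sulfiredoxin. For Traf1, with an SD of 0.30, they were Tnfaip2 (0.16), R3hcc1 (0.16) and Birc3 (0.16). These are descriptions over libraries that share their treatments.

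In the RefSeq annotation of another assembly, CriGri-PICRH-1.0, 5 of the 10 genes overlap another annotated gene, none of it protein-coding. A long non-coding RNA overlaps Tnfrsf1a, Traf1, Traf2 and Il1r1, and a pseudogene overlaps Traf6. The strand used in counting is not given in the sources used here, so reads of such partners could not be told apart from those of these members. The other 5, Tnfrsf1b among them, have no such partner in that annotation.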

How the data were processed

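RNA of 16 CHO cultures was sequenced with a TruSeq library kit. According to the paper's methods, reads were trimmed, aligned to the CHOK1GS_HDv1 genome and counted by the authors in CLC Genomics Workbench. The deposited values are whole-number counts of reads per gene and library, without normalization. The annotation release, strandedness and handling of multi-mapped reads are not given in the sources used here. Of the 20824 rows, 4423 carry an identifier in place of a name, and no name was guessed for them.

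For 920 genes listed by the study, the counts of 15 libraries were identical to the deposited ones, while 37 °C replicate D matched at most 36, so D was taken as the control the study left out. No 2 libraries of the same group agreed within sampling noise (chi-square per degree of freedom of at least 2.55).

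Groups were compared pairwise with edgeR 4.0.16 (quasi-likelihood test, two-sided) in R 4.3.3 on genes kept by filterByExpr at its defaults, with TMM scaling and Benjamini-Hochberg adjustment over all genes tested. A DEG had an adjusted p under 0.05 and a change of 1.5-fold or more. All adjusted p values are from this test unless a permutation test is named. On simulated data with 200 changed genes, 100 by 3-fold and 100 by 1.75-fold, 197 to 200 were called with 0 to 2 false calls in the 6 comparisons. Changes under 1.75-fold, such as those of Traf1 and Tnfrsf1a, were not simulated. Ratios of counts were compared by two-sided exact permutation tests in Python 3.11.15.

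The members and lists were chosen with earlier results of these data known. The text names all 10 members, the listed pathway genes that were DEGs against 37 °C and those below 3 counts throughout. It also names, for each member that was a DEG, the 3 genes most like it. Il33, Il18, Tnfrsf25, Cxcl10, Cflar, Traf5 and Birc2 are given beyond this rule. Of the 81 pathway names, 7 were not matched, Nfkbia and Cxcl2 among them, 13 were below 3 counts in every library, 3 were too low to be tested and 58 were tested at 42.5 °C. Of the marker lists, the epithelial Epcam had at most 1 count and Cdh1 20 to 48, and the endothelial Pecam1, Cdh5 and Kdr at most 4. The epithelial Krt8 and Krt18 and the leukocyte Cd68 and Itgam were not matched by name. Sequences, coordinates and promoter motifs were not analysed here. Alternatives used DESeq2 1.42.0 and limma 3.58.1 as loaded by edgeR. Intervals and floors cover the spread between these libraries and counting error, respectively.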

Additional observations from a re-analysis of the deposited data

Results flagged for a closer look

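In groups of 4 libraries, Dixon's test at 95% was applied to the CPM of each member, 40 tests in all, of which chance flags about 1 in 20. It set apart 1 value, that of Traf3 in 37 °C replicate D, at 16.4 CPM beside 29.3 to 30.5 CPM in the other controls. That library also had the lowest control level of Tnfrsf1b, Il1r1, Il1rap, Ripk1, Myd88 and Traf6 and the highest of Traf1 and Traf2.

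The effects of 2 treatments differed, by a direct test between the heated groups, for 3 members. Between 42.5 °C and 1 h at 40 °C the log2 difference was -0.66 for Tnfrsf1a, -0.85 for Tnfrsf1b and 0.86 for Traf6, and between 42.5 °C and 6 h at 40 °C it was -0.77, -0.89 and 0.94. In each case all 4 libraries of a group lay on one side of all 4 of the other.

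The same test set apart 13 of the pathway genes beyond the members, of which Traf5 and Birc2 are named here after their values were seen. Between 42.5 °C and 1 h at 40 °C the log2 differences were -1.70 for Ticam1, -1.09 for Map3k14, -2.54 for Cxcl1, 0.91 for Tnfaip3, 0.70 for Il6 and 0.89 for Ptgs2. Between 42.5 °C and 6 h at 40 °C they were -1.68 for Ticam1, -0.87 for Map3k14, -2.24 for Cxcl1, 1.60 for Tnfaip3, 1.08 for Il6, 0.72 for Ptgs2, 1.43 for Ccl2, 1.43 for Ccl7, 0.77 for Il18, 0.62 for Traf5, 0.87 for Cflar and -0.65 for Birc2. Between 6 h and 1 h at 40 °C they were -0.69 for Tnfaip3, -0.59 for Icam1, -1.40 for Ccl2 and -1.33 for Ccl7. Adjusted p values over these 22 differences, from edgeR's quasi-likelihood test, were at most 0.000779. Each of these comparisons tested 57 pathway genes. Of all genes tested, 5.27%, 8.25% and 1.28% were DEGs, in the order used above. The lists were chosen with earlier results of these data known, so counts beside these shares are a description and not a test.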

How the results depend on the processing

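The numbers of members called in the 6 comparisons stayed within 1.5 times under the size factors and the Wald test of DESeq2, without the filter or with a minimum of 10 counts, with all 4 controls, in 1 fit over all groups and with a replicate block. Counted by adjusted p alone, 4 members passed after 6 h at 40 °C, 6 at 42.5 °C, 6 between 42.5 °C and 1 h at 40 °C and 7 between 42.5 °C and 6 h at 40 °C. Tested by glmTreat against a change of 1.5-fold, 0 members passed after 6 h at 40 °C and 0 between 42.5 °C and 1 h at 40 °C, while 2 passed in each of the other comparisons of 42.5 °C. By glmTreat Tnfrsf1a at 42.5 °C had an adjusted p of 0.471 against 37 °C. Leaving out 1 library at a time gave 0 to 1 members after 6 h at 40 °C, with 0 without 37 °C replicate A or without 6 h replicate B. Of 150 alternative values of the 10 calls, 142 remained calls, 8 missed a threshold and 0 changed sign.

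Libraries of the same letter correlated with a mean r of 0.014 to 0.134 after subtraction of group means. The highest mean was between 1 h at 40 °C and 37 °C, with 0.074 to 0.172 for the same letter and a mean of -0.045 for other letters. There heated replicates A, B and C were each closest to the control of their letter, and heated D had no control of its letter to match. In the other comparisons 0 to 1 of 4 libraries were closest to the one of their letter, where D again could not match against 37 °C. Whether the letters paired the cultures was thus not settled, and the main tests did not use them. With the replicate block the log2 change at 42.5 °C was -0.74 for Tnfrsf1a, -1.09 for Tnfrsf1b and 0.89 for Traf6, and that of Traf1 after 6 h at 40 °C was -0.63 (adjusted p = 0.0154). Because control D was left out, heated replicate D stood alone in its block against 37 °C. These changes therefore rested on replicates A, B and C of each group. By adjusted p alone the block brought Il1rap at 42.5 °C past the threshold (0.13, adjusted p = 0.028), and took away Traf3 after 6 h at 40 °C (-0.19, adjusted p = 0.0792) and Traf2 between 42.5 °C and 6 h at 40 °C (-0.12, adjusted p = 0.0505). It changed no other call of a member.

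For the ratios of counts, Traf6 to Traf2 after 6 h at 40 °C was 0.02 and ranged from -0.0737 to 0.0778 with 1 library left out, turning below 0 without 37 °C replicate A (-0.0737) or 6 h replicate D (-0.0426). At 42.5 °C it was 1.16 with all 4 controls and passed the threshold before adjustment (exact permutation p = 0.0286). Tnfrsf1b to Tnfrsf1a after 1 h at 40 °C was 0.0314 with all 4 controls, against -0.18 without replicate D. Totals of 10504192 to 14668365 counts left 37 to 106 reads for Traf1, the member whose calls depended most on single libraries. The pathway genes beyond the members were recomputed with all 4 controls only.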
